A study of Mus musculus with 4 samples.

Results

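The core autophagy genes are 10 genes chosen by name: Map1lc3a, Map1lc3b, Gabarap, Gabarapl1, Gabarapl2, Sqstm1, Becn1, Atg5, Atg7 and Tfeb. They were found by gene name among the 18674 names of the deposited RNA-seq table, and the rows of a name were averaged. Of the 10 genes, 9 are listed under these names with 1 row each, and Tfeb is listed under its older symbol Tcfeb with 3 rows whose RefSeq accessions belong to Tfeb. The tissue was lumbar spinal cord, taken from wild type (WT) animals and from the ALS (G93A) transgenic strain, in which mutant human SOD1 models amyotrophic lateral sclerosis (ALS). Each genotype was given spermidine (SD, a natural polyamine) or vehicle, so that each genotype has a vehicle and an SD library, 1 per condition (the SD libraries are written WT + SD and G93A + SD). The treatment label of both vehicle libraries reads none. In the study's methods the mice of the RNA sequencing were 100 days old and had received SD or PBS for 30 days, and the labels give 4 doses per week. The dose in the methods is 5 mg/kg by intraperitoneal injection, and another section there names saline as the vehicle. G93A mice were of a high-expresser strain bred with B6/SJLF1 females, the human gene of this strain is active throughout the body and not in neurons alone, and the treatment studies used only male mice. How many animals stand behind a library is not given in the sources used here. Each condition has 1 library, so a difference between a pair of conditions has no replicate of its own, and the differences below are given without a test. A joint fit of genotype and treatment over the 4 libraries, which would leave 1 residual degree of freedom, was not run.

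Autophagy encloses cytoplasm, protein aggregates or organelles in a double membrane, the autophagosome, which then fuses with a lysosome. A kinase complex and a lipid kinase complex start the membrane, and a pair of ubiquitin-like conjugation systems attaches proteins of the ATG8 family (the LC3 and GABARAP proteins) to it. Receptors such as p62 bind both the cargo and the ATG8 proteins. The pathway is studied in ALS because several human ALS genes, SQSTM1 among them, encode autophagy proteins, and SD is known as an inducer of autophagy. RNA levels do not measure autophagic flux, since much of the control lies in phosphorylation, lipidation and turnover of the proteins.

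Values are given in RPKM (reads for each kilobase of a transcript relative to library size), a unit inferred from the values, and differences are given as log2 of value plus 0.1 RPKM. From the value that 1 read pair adds in low genes, the depth was estimated at 36.8 to 38.6 M read pairs per library. Markers of the other cell types of the cord differed strongly between the genotypes, which touches every comparison of G93A with WT below. Several also differed between the G93A libraries, which touches the SD comparison in G93A. The summed level of 11 microglial markers was 150.2 to 173 RPKM in the WT libraries and 1280 to 1403 RPKM in the G93A libraries, and all 11 were higher in both G93A libraries. The sum of 7 astrocyte markers was 957 to 1020 RPKM in the WT libraries and 3446 to 4224 RPKM in the G93A libraries, with 6 of 7 higher under vehicle and 7 of 7 under SD. The sum of the 8 listed neuronal markers was 3768 to 3834 RPKM in the WT libraries and 1785 to 2288 RPKM in the G93A libraries, with all 8 lower in both, and the motor neuron markers summed to 71.9 to 79.2 RPKM and 44.2 to 60.3 RPKM, with 5 of 6 lower in both pairs. Oligodendrocyte markers summed to 9009 to 9284 RPKM and 6900 to 7498 RPKM. The G93A + SD library lay at the far end of each of these ranges. The tissue label was checked on the Hox genes Hoxa10, Hoxc10 and Hoxd10 of the lumbar cord, which summed to 34.3 to 35.5 RPKM in the WT libraries and 22.6 to 23.9 RPKM in the G93A libraries, while the forebrain gene Emx1 stayed at or near 0 and Neurod6, another, had 1.19 to 1.64 RPKM. In bulk tissue, fewer cells of a type and less RNA per cell cannot be told apart, and the part of these cell type markers in the values below was not tested.

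The ATG8 genes are close relatives, and their coding ends show both what they share and how they differ. Each protein is made with a short tail that the protease ATG4 removes after a glycine, and this glycine is then joined to the membrane lipid. The last 60 coding bases, stop codon included, are printed below from the GENCODE M21 transcripts of GRCm38, on the coding strand, with the last glycine codon in capitals.
Map1lc3a: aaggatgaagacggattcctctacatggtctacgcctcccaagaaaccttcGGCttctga
Map1lc3b: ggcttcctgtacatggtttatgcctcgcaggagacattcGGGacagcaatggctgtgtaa
Gabarap: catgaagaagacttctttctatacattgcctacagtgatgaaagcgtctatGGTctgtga
Gabarapl1: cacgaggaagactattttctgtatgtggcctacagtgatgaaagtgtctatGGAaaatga
Gabarapl2: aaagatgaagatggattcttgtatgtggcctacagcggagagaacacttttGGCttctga

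The glycine codon is codon 120 in both LC3 genes and codon 116 in the 3 GABARAP genes. In Map1lc3b 5 codons follow it before the stop codon, and in each of the other genes 1 codon does. Across the whole coding sequence, Gabarap and Gabarapl1 were identical at 265 of 354 aligned bases (74.9%), and Map1lc3a and Map1lc3b at 280 of 366 (76.5%). The longest identical run was 17 bases for the first pair and 15 bases for the second, both shorter than the 53 bases of a sequencing read, so that a read within the coding sequence of one does not match the other in full. Every 53-base window of the listed transcripts was also compared, on both strands, with the transcripts of all other genes. No shared window was found in the transcripts of Map1lc3a, Gabarap, Sqstm1, Atg5, Atg7 and Tfeb. The share was 13.2% for Map1lc3b and 16.7% for Gabarapl2, which for the most part matched processed pseudogenes (Gm6055 for the first and Gm3724 for the second shared the most windows). It was 18.5% for Gabarapl1, which overlaps 1700101I11Rik on the opposite strand, and 45.3% for Becn1, whose listed transcript overlaps exons of Cntd1 on the opposite strand over 2247 of its 4365 bases. The handling of such reads by the authors is not stated, and the values of these 4 genes are uncertain to that extent.

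Gabarap, a membrane-bound ATG8 protein of late autophagosome steps that also binds the GABA-A receptor, had the clearest separation of the genotypes among the ATG8 genes. In GENCODE M21 on GRCm38, the annotation and build of all positions given here, its listed transcript has 4 exons (chr11:69991143-69994951, plus strand). It had 97.5 RPKM with vehicle and 99.2 RPKM with SD among the WT libraries, and 132 RPKM with vehicle and 143 RPKM with SD among the G93A libraries. Both G93A libraries were above both WT libraries, and the libraries of a genotype were close to each other. G93A vehicle was 1.36-fold above WT vehicle (log2 difference 0.44), and G93A + SD was 1.44-fold above WT + SD (log2 difference 0.52). Among the 5797 names with a mean of at least 10 RPKM, both differences stood at the 86.8th percentile, so that many genes of a like level had larger ones. At least 4850 read pairs were estimated behind each value, for which read counting alone gives a log2 difference a standard error of 0.029.

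Gabarapl1, the most abundant ATG8 gene in every library, showed the opposite order with small differences. Its locus also has 4 exons (chr6:129533160-129542346, plus strand). The levels read 224 RPKM with vehicle and 216 RPKM with SD among the WT libraries, and 206 RPKM with vehicle and 197 RPKM with SD among the G93A libraries. The G93A libraries were lowest, with log2 differences of -0.12 under vehicle and -0.13 under SD.

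Gabarapl2, which encodes GATE-16 and was the least abundant of the family, was also lower in the G93A libraries. The locus has 4 exons (chr8:111940703-111953612, plus strand). Its levels read 21.2 RPKM with vehicle and 20.9 RPKM with SD among the WT libraries, and 16.7 RPKM with vehicle and 17.6 RPKM with SD among the G93A libraries. The genotypes did not overlap, and the log2 difference was -0.34 under vehicle and -0.24 under SD.

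Map1lc3a and Map1lc3b encode LC3A and LC3B, the ATG8 proteins used most often as markers of autophagosomes. Map1lc3a (chr2:155276297-155278073, plus strand) had 82.5 RPKM with vehicle and 63.8 RPKM with SD among the WT libraries, and 68.6 RPKM with vehicle and 65.6 RPKM with SD among the G93A libraries. WT vehicle stood alone above the other libraries, which lay within 63.8 to 68.6 RPKM. The log2 difference of WT + SD against WT vehicle was -0.37, at the 1.12th percentile of names with a mean of at least 10 RPKM. G93A + SD against G93A vehicle gave -0.065. Map1lc3b (chr8:121590361-121598760, plus strand) had 111 RPKM with vehicle and 116 RPKM with SD among the WT libraries, and 117 RPKM with vehicle and 105 RPKM with SD among the G93A libraries. Its highest library was 1.11-fold above its lowest, and the genotypes overlapped.

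**Figure D1:**
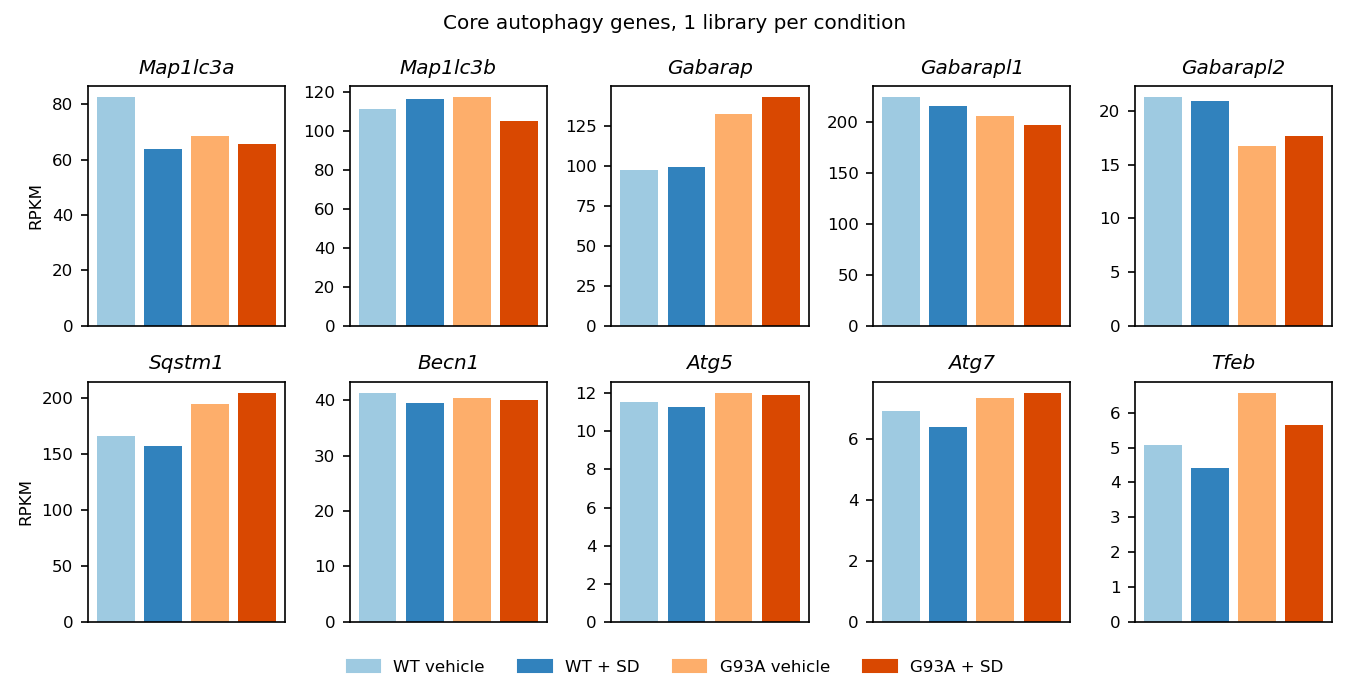
RPKM of each core autophagy gene in the 4 libraries, 1 bar per library, with an axis from 0 that differs between genes. Gabarap, Sqstm1 and Tfeb have their highest bars in G93A libraries, and Becn1 and Atg5 are nearly level.

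The ATG8 genes together stayed nearly level while their make-up differed between the genotypes. The sum of the 5 genes was 537 RPKM with vehicle and 516 RPKM with SD among the WT libraries, and 541 RPKM with vehicle and 529 RPKM with SD among the G93A libraries, a span of 1.05-fold. Gabarap made up 18.2% of this sum in WT vehicle and 19.2% in WT + SD, against 24.5% in G93A vehicle and 27.0% in G93A + SD. Gabarapl1 made up 41.7% and 41.8% in the WT libraries and 38.1% and 37.3% in the G93A libraries, in the same order of treatment. Gabarapl1 exceeded Gabarap by a ratio of 2.30 with vehicle and 2.17 with SD in WT, against 1.56 with vehicle and 1.38 with SD in G93A. The ratio was thus 1.48-fold lower in G93A than in WT under vehicle and 1.57-fold lower under SD. These shares and ratios were chosen after the values had been seen, and they do not depend on how the libraries are scaled to each other.

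**Figure D2:**
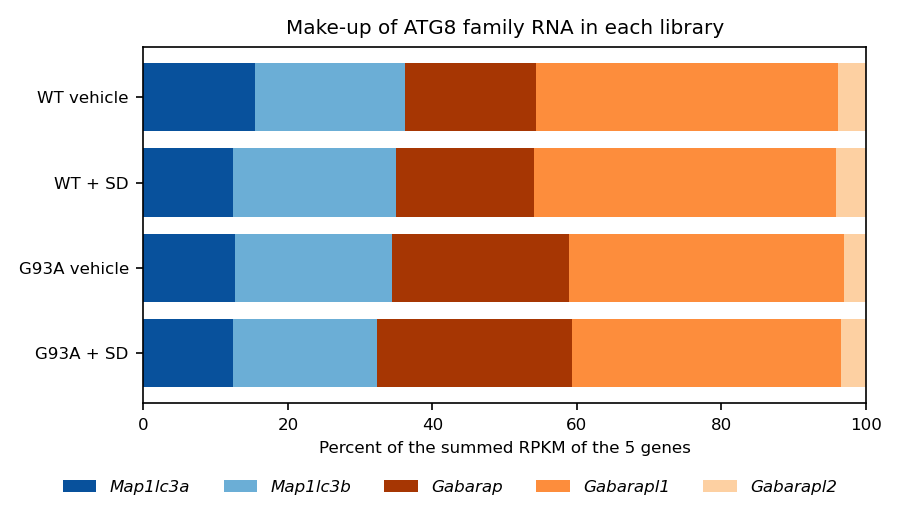
Share of each ATG8 gene in the summed RPKM of the 5 genes, 1 horizontal bar per library. The Gabarap segment covers 18.2% and 19.2% of the bar in the WT libraries and 24.5% and 27.0% in the G93A libraries.

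Sqstm1 encodes p62, the receptor that brings ubiquitinated cargo to ATG8 proteins and that gathers in inclusions in ALS. Its listed transcript has 8 exons (chr11:50199366-50210827, minus strand). The gene was measured at 166 RPKM with vehicle and 158 RPKM with SD among the WT libraries, and 195 RPKM with vehicle and 205 RPKM with SD among the G93A libraries. Both G93A libraries were above both WT libraries. The difference was 1.17-fold under vehicle (log2 difference 0.23) and 1.30-fold under SD (log2 difference 0.38). Sqstm1 was among the most abundant names of the table, at rank 135 of 18674, and at least 12281 read pairs were estimated behind each value.

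Becn1, which encodes Beclin 1 of the lipid kinase complex that starts the autophagosome membrane, was the most even of the 10 genes. Its levels read 41.3 RPKM with vehicle and 39.4 RPKM with SD among the WT libraries, and 40.4 RPKM with vehicle and 40.1 RPKM with SD among the G93A libraries. The highest value was 1.05-fold above the lowest. Its listed transcript has 12 exons (chr11:101285952-101302286, minus strand). Cntd1, with which its transcript overlaps, was listed at 9.69 to 10.7 RPKM.

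Atg5 and Atg7 belong to the conjugation machinery, Atg7 as the activating enzyme and Atg5 as part of the complex that places ATG8 proteins on the membrane. Atg5 (chr10:44268358-44364291, plus strand) had 11.6 RPKM with vehicle and 11.3 RPKM with SD among the WT libraries, and 12.0 RPKM with vehicle and 11.9 RPKM with SD among the G93A libraries. Its log2 range of 0.091 is near the standard error of 0.065 that counting alone gives. Atg7 (chr6:114643097-114860614, plus strand) had 6.90 RPKM with vehicle and 6.38 RPKM with SD among the WT libraries, and 7.36 RPKM with vehicle and 7.50 RPKM with SD among the G93A libraries. The G93A libraries were highest, with log2 differences of 0.090 under vehicle and 0.23 under SD.

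Tfeb encodes the transcription factor that switches on lysosomal and autophagy genes, and it had the widest range of the 10 genes at the lowest level. Its listed transcripts have 8 or 9 exons (chr17:47737030-47792419, plus strand). Tfeb was measured at 5.07 RPKM with vehicle and 4.41 RPKM with SD among the WT libraries, and 6.56 RPKM with vehicle and 5.64 RPKM with SD among the G93A libraries. Both G93A libraries were above both WT libraries, and within each genotype the SD library was the lower one. G93A vehicle was 1.29-fold above WT vehicle (log2 difference 0.37) and G93A + SD was 1.28-fold above WT + SD (log2 difference 0.35). SD against vehicle gave a log2 difference of -0.20 in WT and -0.22 in G93A. With about 392 to 579 read pairs behind a value, counting alone gives these differences a standard error of up to 0.10. Its 3 rows, 1 per RefSeq transcript, showed the same order of libraries.

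The names with a mean of at least 10 RPKM whose log2 values, centred on their own mean, lay closest to those of Tfeb over the 4 libraries were Phlda3, Nenf, Ptms, Scamp4 and 2810422J05Rik. The Euclidean distance was 0.029 for Phlda3, 0.049 for Nenf, 0.050 for Ptms, 0.092 for Scamp4 and 0.099 for 2810422J05Rik, out of 5797 names. Phlda3 had 29.4 RPKM with vehicle and 25.4 RPKM with SD among the WT libraries, and 38.6 RPKM with vehicle and 32.7 RPKM with SD among the G93A libraries. With 4 points this likeness is a description only.

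The first comparison asks how the genes differed between G93A and WT mice. A gene was called where its values plus 0.1 RPKM differed at least 1.5-fold, the fold used in the study, which is 0.58 on the log2 scale. None of the 10 genes was called in G93A vehicle against WT vehicle, where 19.7% of all names and 13.2% of the names with a mean of at least 10 RPKM were called. None was called in G93A + SD against WT + SD either, where the shares were 24.9% and 20.2%. The median log2 difference of the 10 genes was 0.064 under vehicle and 0.061 under SD, against 0.046 and 0.050 over all names. The nearest to the threshold was Gabarap in the SD pair, with 1.44-fold.

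The order of the genotypes depended on the scaling for 5 of the 10 genes. As deposited, both G93A libraries were above both WT libraries for Gabarap, Sqstm1, Atg5, Atg7 and Tfeb and below them for Gabarapl1 and Gabarapl2. Over all names the shares were 39.7% above and 28.0% below, and they were, for names whose mean was 10 RPKM or more, 40.4% and 39.6%, so that a lack of overlap is common in these libraries. When the libraries were scaled to the same sum, which moved the single names by a median of -0.10 under vehicle and -0.11 under SD and left the median of all names at -0.020 in both, only Gabarap, Sqstm1 and Tfeb remained above, and Map1lc3a, Map1lc3b, Becn1 and Atg5 joined Gabarapl1 and Gabarapl2 below. With scaling by the median ratio Atg5 no longer stood above and Becn1 stood below. Gabarap, Sqstm1, Tfeb, Gabarapl1 and Gabarapl2 kept their side in each of the 3 scalings that were tried.

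The second comparison asks how the SD library differed from the vehicle library within a genotype. Cell type markers also differed between the G93A libraries. Astrocyte markers summed to 3446 RPKM with vehicle and 4224 RPKM with SD, with 7 of 7 higher. Neuronal markers summed to 2288 and 1785 RPKM, with 7 of 8 lower, and microglial markers to 1280 and 1403 RPKM, with 7 of 11 higher. Their part in the SD differences was not tested. None of the 10 genes was called in WT + SD against WT vehicle, where 5.04% of all names and 0.656% of those with a mean of at least 10 RPKM were called (2.25% of all names higher and 2.80% lower). None was called in G93A + SD against G93A vehicle, where the shares were 5.52% and 1.14%. In WT the log2 differences ran from -0.37 for Map1lc3a to 0.062 for Map1lc3b, and 8 of the 10 were below 0. In G93A they ran from -0.22 for Tfeb to 0.11 for Gabarap, and 6 of the 10 were below 0. The median over the 10 genes was -0.060 in WT and -0.011 in G93A, against 0.0044 and 0.0068 over all names. From the 5th to the 95th percentile, names with a mean of at least 10 RPKM lay between -0.19 and 0.17 in WT and between -0.28 and 0.26 in G93A. Map1lc3a and Tfeb lay below this interval in WT, and none of the 10 lay outside it in G93A. Tfeb, whose own mean is under 10 RPKM, was only just below its lower limit in WT (-0.198 against -0.195) and at the 14.4th percentile of all names. For 4 of the 10 genes (Map1lc3b, Gabarapl2, Sqstm1 and Atg7) the SD difference had opposite signs in the genotypes, which also held for 45.4% of the names whose mean was 10 RPKM or more. The SD and the genotype comparisons use the same 4 libraries, so their values are not independent of each other.

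**Figure D3:**
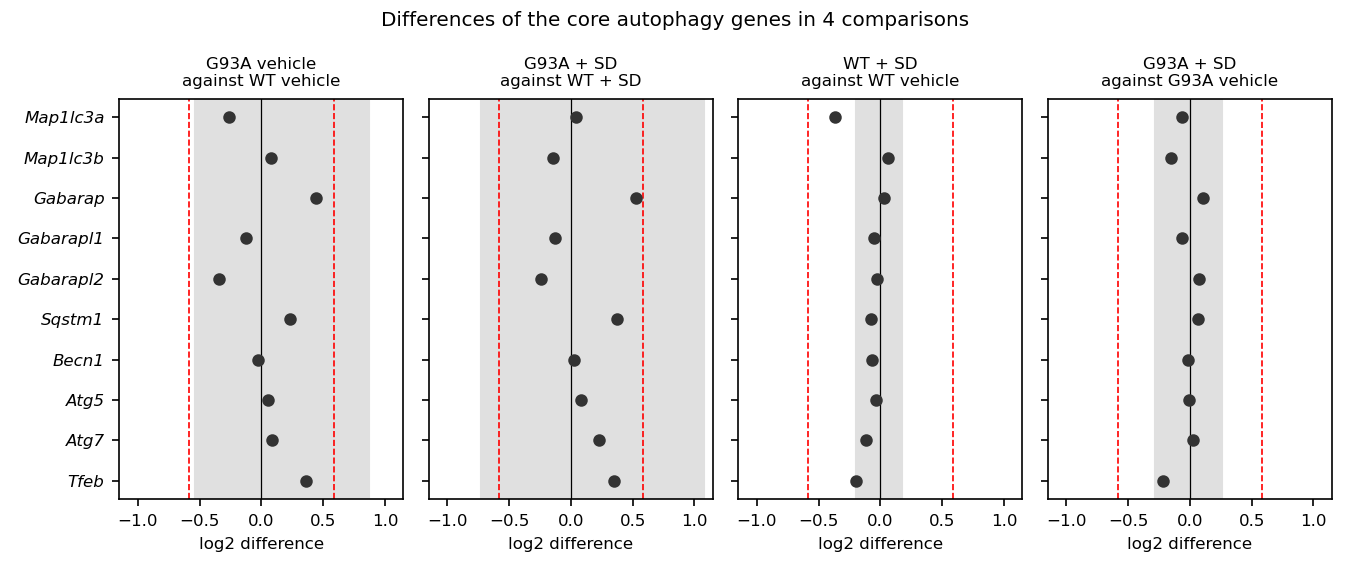
Log2 difference (value plus 0.1 RPKM) of each gene in the 4 comparisons, with the grey band from the 5th to the 95th percentile of the 5797 names with a mean of at least 10 RPKM and dashed lines at 1.5-fold. All 40 points lie between the dashed lines, and the one farthest out is Gabarap in G93A + SD against WT + SD, at 0.52.

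A list of other autophagy genes, of which 62 were found under a current or older symbol (Epg5 was not analysed here), places the core genes in their pathway. In G93A vehicle against WT vehicle 4 of the 62 were called higher and 0 lower, and in G93A + SD against WT + SD 5 were called higher and 0 lower. Over all names 14.4% were called higher and 5.31% lower under vehicle, and 17.1% and 7.82% under SD. Of these calls, 2 of 4 under vehicle and 3 of 5 under SD were genes of the fusion of autophagosomes with lysosomes. Vamp8, a SNARE of that fusion, had 8.32 RPKM with vehicle and 7.82 RPKM with SD among the WT libraries, and 19.5 RPKM with vehicle and 24.4 RPKM with SD among the G93A libraries. Lamp2, a lysosomal membrane protein, had 43.3, 44.8, 84.9 and 100.8 RPKM in the same order, and both genes were called in both G93A comparisons. Lamp1, also of the lysosomal membrane, had 255, 262, 363 and 402 RPKM and was called in the SD pair only, with log2 differences of 0.51 under vehicle and 0.62 under SD. Of the 8 listed fusion genes, 6 had a positive difference under vehicle and 7 under SD, with medians of 0.32 and 0.41. Scaled to the same sum, 6 of the 8 stayed above WT under either treatment, with medians of 0.22 and 0.29, and Lamp1 was no longer called. Vamp8, Lamp1 and Lamp2 are also well expressed by microglia and other phagocytes, whose markers were also higher in the G93A libraries, and the part of those cells was not tested.

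None of the genes of the early steps was called as deposited. Of the 9 genes of the initiating kinase complex and its regulators, 6 were below WT under vehicle and 8 under SD. Their median log2 differences were -0.20 and -0.25, against 0.046 and 0.050 over all names. The 9 include the regulators Mtor, Rptor, Prkaa1 and Prkaa2. Of the complex itself, Ulk1, Atg13 and Rb1cc1 were below WT under both treatments. Ulk2 was above under both (0.14 and 0.24), and Atg101 under vehicle only (0.088 and -0.086). For scale, 38.9% of all names lay below -0.030 under vehicle and 47.4% below 0.024 under SD, the differences of Becn1. With the same sum, 7 and 8 of the 9 were below. Rb1cc1, which encodes the scaffold FIP200, had 16.3 RPKM with vehicle and 17.0 RPKM with SD among the WT libraries, and 12.8 RPKM with vehicle and 13.1 RPKM with SD among the G93A libraries, and it is named here after its values were seen. Atg13, a subunit of the same complex, had 22.1, 21.4, 18.3 and 18.0 RPKM in this order, and the kinase Ulk2 had 18.1, 18.7, 19.99 and 22.1 RPKM. Of the 7 genes of the lipid kinase complex in which Beclin 1 acts, 3 were below WT under vehicle and 4 under SD as deposited, but 6 and 6 of 7 when scaled to the same sum (5 and 6 with the median ratio). Its catalytic subunit Pik3c3 had 16.9, 17.8, 14.4 and 13.1 RPKM, while the inhibitory partner Rubcn had 16.8, 17.3, 17.7 and 18.0 RPKM. Among the 8 genes of membrane supply and lipid binding, Wipi2 had 23.6 to 24.7 RPKM and Wdr45b had 20.9 to 23.4 RPKM, and 0 of the 8 were called in any comparison as deposited. Scaled to the same sum, Atg9a, the membrane protein of vesicles that seed the autophagosome, was called lower in the SD pair, with deposited levels of 23.7, 24.0, 19.1 and 17.2 RPKM in the order used above.

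In the conjugation class, to which Atg5 and Atg7 belong, 1 of 9 other genes was called. Atg4a, one of the ATG4 proteases that cut the tails shown above, had 1.46 RPKM with vehicle and 1.60 RPKM with SD among the WT libraries, and 2.50 RPKM with vehicle and 2.44 RPKM with SD among the G93A libraries, with log2 differences of 0.74 under vehicle, where it was called, and 0.57 under SD, where it was not. Atg4b, the more abundant protease of the same family, had 16.8, 18.6, 16.7 and 15.9 RPKM, and Atg12, which is joined to Atg5, had 21.3, 23.2, 23.9 and 25.1 RPKM. Among the 14 receptors and mitophagy genes, none was called between the genotypes. Tax1bp1, a receptor that acts beside p62, had 57.2, 59.9, 54.5 and 53.02 RPKM, and Pink1, the kinase that marks damaged mitochondria, had 137, 142, 126 and 141 RPKM.

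Of the class of relatives of Tfeb and other regulators of transcription, 6 of 7 were above WT under vehicle and 6 under SD as deposited, but 5 and 4 of 7 when scaled to the same sum. The deposited medians were 0.13 and 0.17, against 0.046 and 0.050 over all names. The 6 include the repressor Zkscan3 and Tfec, which lay near 0 RPKM, so the count does not describe one direction of regulation. Tfe3, the closest listed relative of Tfeb by function, had 8.34 RPKM with vehicle and 7.58 RPKM with SD among the WT libraries, and 10.8 RPKM with vehicle and 11.3 RPKM with SD among the G93A libraries. The log2 differences of 0.36 and 0.57 did not reach the threshold. Foxo1 had 5.13, 4.92, 6.52 and 7.91 RPKM in the same order and was called under SD, though not when scaled to the same sum. Zkscan3, a repressor of autophagy genes, had 8.38, 8.52, 8.97 and 9.61 RPKM. Tfec, a relative found in macrophages, was listed at 0 in both WT libraries and at 0.066 and 0.058 RPKM in G93A vehicle and G93A + SD. Its call under both treatments rests on the pseudocount and on values near 0. None of the 62 genes was called in G93A + SD against G93A vehicle, where 2.97% of all names were called higher and 2.55% lower.

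**Figure D4:**
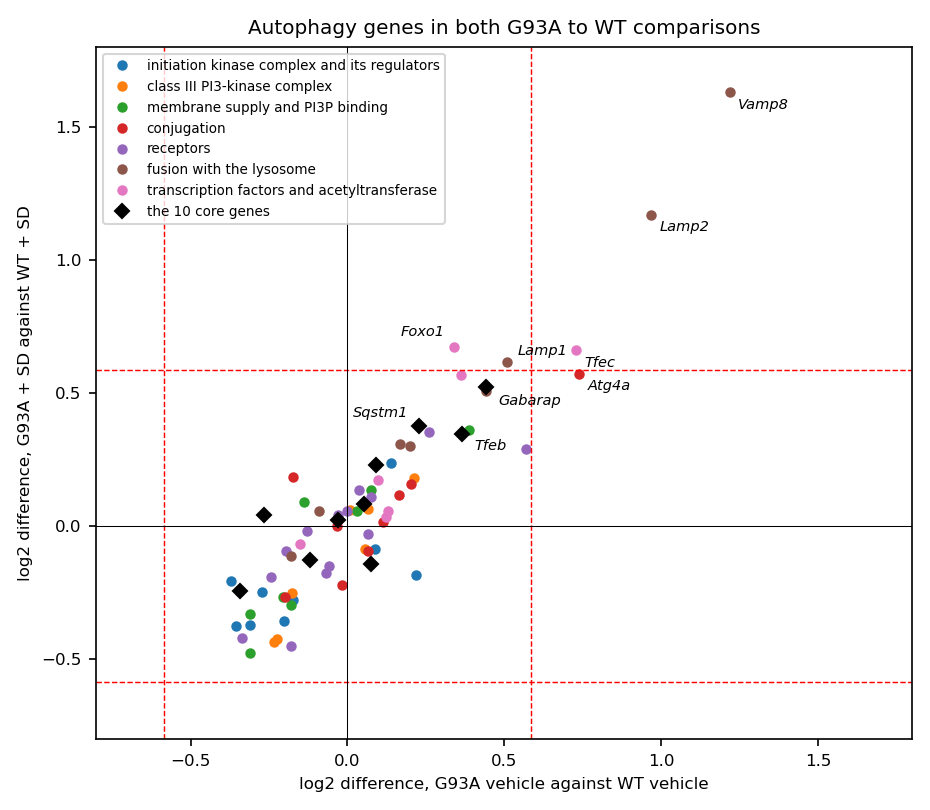
Log2 difference of G93A against WT under vehicle (horizontal axis) and under SD (vertical axis) for the 62 other autophagy genes, coloured by step, and for the 10 core genes (black diamonds), with dashed lines at 1.5-fold. Vamp8 and Lamp2 lie farthest out in both directions, at 1.22 and 1.63 and at 0.97 and 1.17, and all black diamonds lie inside the dashed lines.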

How the data were processed

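Polyadenylated RNA of 4 libraries, 1 per condition, was sequenced with 53-base reads. Per the methods and the submitters' processing notes, the authors aligned reads with STAR to GRCm38 (mm10), and HTSeq with Ensembl genes is the counting step in the methods. The table the authors deposited lists RefSeq transcripts in 23750 rows, and its values were taken as RPKM because the sum of value times length was almost equal between libraries. The step that leads to these values is not stated. The 3 ratio columns of the authors' own comparisons were not used, and no column of another sample was found (0 columns).

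Rows of a name were averaged. Differences are log2((value + 0.1)/(value + 0.1)), and a call is 1.5-fold. Differences between pairs of single libraries carry no test, standard error between animals or p-value, and no joint fit over the 4 libraries was run. Older symbols were matched through the RefSeq table of GRCm38.p6, and transcript lengths (97.0% of rows), positions and sequences came from GENCODE M21. Read pairs are estimates from the most frequent low value times length, and the counting errors derived from them cover counting only. That value was sought within a preset interval, which limits the estimates. It was assumed that the values count read pairs and not single reads. The members and lists were chosen with earlier results of these data known. Named are all members, called genes of the pathway list and the 2 genes of each of its classes with the highest mean, the 5 names nearest to the member of widest range, and Rb1cc1 and Atg9a, chosen later. The other genes of the initiating kinase complex and its regulators were also named later. Some results that this rule covers are not reported here. Alternatives covered the pseudocount, scaling, handling of rows, a filter on low values and the threshold. The software was pandas 2.3.3 and numpy 2.4.6 under Python 3.11.15, with matplotlib 3.10.9 for plots, and the call was tested on simulated data.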

Additional observations from a re-analysis of the deposited data

Results flagged for a closer look

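For 4 of the 10 core genes the SD library lay on opposite sides of its vehicle library in the 2 genotypes, with 1 library on each side, so that the difference was not tested. SD differences of opposite sign were also found for 45.4% of all names whose mean reached 10 RPKM. The log2 difference in G93A minus that in WT was -0.22 for Map1lc3b, 0.10 for Gabarapl2, 0.15 for Sqstm1 and 0.14 for Atg7. For Map1lc3b the WT pair went from 111 to 116 RPKM and the G93A pair from 117 to 105 RPKM.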

How the results depend on the processing

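No fit with a replicate block was made, since each condition has 1 library and the labels give no replicate numbers, and leaving out a library would leave its comparisons without a value. No core gene was called under the alternatives tried other than a threshold of 1.2-fold, which gave 4 genes between the genotypes under vehicle and 3 under SD, 1 for SD in WT and 0 for SD in G93A. Of 240 log2 differences of core genes under 6 alternatives, 220 moved by less than 0.1, and 9 changed sign, 3 with median ratio scaling and 6 with the same sum. The 20 that moved further were all differences between the genotypes with the same sum, which shifts every gene nearly alike. The alternatives for handling rows cannot change the 9 genes with 1 row. The limit of 0.1 also exceeds the median size of the SD differences (0.0639 in WT and 0.0665 in G93A). The 220 are therefore no measure of stability. The number of all names called, 3678, 4649, 942 and 1031 in the same order of comparisons, was 5697, 2938 and 2992 without a pseudocount under vehicle, for SD in WT and for SD in G93A. It was 1907, 2732, 133 and 197 with a pseudocount of 1 RPKM, 2259, 3075, 246 and 282 among names with a mean of at least 1 RPKM, 8938, 9933, 3610 and 4316 at 1.2-fold, and 1578, 2068, 273 and 285 at 2-fold. The share of higher among these calls was 73.1% between the genotypes under vehicle and 68.6% under SD, and 61.5% and 57.0% with the same sum. Of the other autophagy genes, 17, 26 and 3 were called at 1.2-fold between the genotypes under vehicle, between them under SD and for SD in G93A, against 4, 5 and 0, an alternative added after seeing the data. The median over core genes of the SD difference in G93A minus that in WT was 0.069, and it lay between 0.058 and 0.069 under the 6 added alternatives. The fewest read pairs stand behind Tfeb, and the spread between animals is unknown for every gene.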
